A study of Homo sapiens with 3 samples.

Results

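The genes described here encode receptors of the transforming growth factor beta (TGF-beta) and bone morphogenetic protein (BMP) family and the SMAD proteins that carry their signal, measured in KYSE140 cells, an established line from a human squamous carcinoma of the oesophagus. They were chosen by name: ACVR1, ACVR1B, BMPR1A, BMPR2, TGFBR1, TGFBR2, TGFBR3, SMAD2, SMAD3 and SMAD4. A probe set, the group of short array probes that reads a transcript, was counted where the array annotation gave it a single gene symbol and that symbol was a member. This gave 35 probe sets of 9 genes, of 54613 probe sets and 19775 genes in all. For BMPR1A, a type I BMP receptor, the annotation gave no probe set this symbol as its single one, and it is not analysed here.

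The series held 3 Affymetrix arrays of total RNA, 1 from cells left untreated and 2, titled B1 and B2, from cells given cisplatin, a platinum drug that crosslinks DNA. The labels give a dose of 10 mM for 12 h, although micromolar doses are usual in culture, so the unit is in doubt. Culture was in RPMI medium with serum and antibiotics for every array, and the labels do not say whether B1 and B2 were separate cultures, so p-values measure only the spread between these arrays, which may be technical. The design sets cisplatin-treated cells against untreated ones. In bulk RNA of this kind, fewer cells of one state and less RNA per cell cannot be told apart.

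In this family a secreted dimer brings together type II and type I serine/threonine kinase receptors, the type II receptor phosphorylates the type I receptor, and the type I receptor then phosphorylates receptor-regulated SMADs. TGF-beta and activins act through TGFBR1 and ACVR1B on SMAD2 and SMAD3, whereas BMPs act through ACVR1, BMPR1A and BMPR1B on SMAD1, SMAD5 and SMAD9. Both branches share SMAD4, with which the phosphorylated SMADs enter the nucleus. In squamous epithelia TGF-beta is known as a brake on proliferation and, in carcinomas, as an inducer of invasive behaviour.

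Intensities were taken as log2 values, and a difference is always cisplatin minus untreated. The arrays differed unevenly. Over all probe sets the SD of the difference was 0.34 for B1, 0.54 for B2 and 0.49 between B2 and B1, so B2 stood further from the other arrays than they stood from each other. Of 14 squamous epithelial markers listed, 11 were measured, and KRT6A, KRT17 and TP63 were not. All 11 averaged 6 or more on the log2 scale, the level used here to separate brighter from dim probe sets. None of the 6 leukocyte or 8 endothelial markers reached it, with highest intensities of 54.6 and 55.1, and of 8 fibroblast markers COL1A1 and THY1 did. The summed intensity of the squamous markers was 27686 untreated, 28199 in B1 and 40894 in B2, and their median difference was -0.01 in B1 and 0.52 in B2. The fibroblast markers summed to 333, 362 and 452 in the same order. Of the brighter pair, THY1 read 59.5, 61.6 and 144 and COL1A1 was higher by 0.35 and 0.38, so THY1 too stood highest in B2. The part of either marker list in the B2 values of the members was not tested.

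No member probe set passed limma's moderated test after Benjamini-Hochberg adjustment over all 54613 probe sets (0 of 35, lowest adjusted p = 0.95). The same test called 0% of all probe sets, with 1 residual degree of freedom. At an unadjusted limma p under 0.05 there were 3 member probe sets, all lower and from ACVR1, TGFBR2 and SMAD3, against 2.59% of all probe sets lower and 1.37% higher. In the fit with 1 probe set per gene, 2 of 9 members were below that level, both lower, against 2.09% of genes lower and 0.764% higher. A rule of size was therefore read beside the test: at least 2-fold in the same direction in B1 and in B2, both set against the same untreated array. It held for 3 member probe sets, both of TGFBR3 and the single one of ACVR1, all lower, against 0.659% of all probe sets, and for 0 member probe sets in the higher direction, against 0.233%. Of the 21 brighter member probe sets 3 were lower and 0 higher by this rule, against 1.01% and 0.418% of all brighter probe sets. Of the 9 member genes 2 were lower and 0 higher, against 1.12% and 0.225% of all brighter genes. With B1 alone 4 member probe sets were at least 2-fold lower (1.31% of all probe sets) and 0 higher (0.368%). With B2 alone 5 were lower (3.85%) and 1 was higher (2.24%). Of the 35, 17 were lower in both cisplatin arrays by any amount (28.3% of all probe sets), 6 were higher in both (39.3%), 12 were lower in B1 and higher in B2 (16.2%), and 0 were the reverse (15.7%). Of the 21 brighter ones, these counts were 11 lower (34.8% of all brighter probe sets), 2 higher (29.2%) and 8 lower in B1 and higher in B2 (19.2%). All 12 probe sets of mixed direction belonged to receptors, and of the 15 SMAD probe sets 11 were lower and 4 higher in both. Probe sets of a gene read the same transcripts, so these counts are not independent. Long genes, as all measured members are, were more often lower in both arrays, and their shares are given below.

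**Figure D1:**
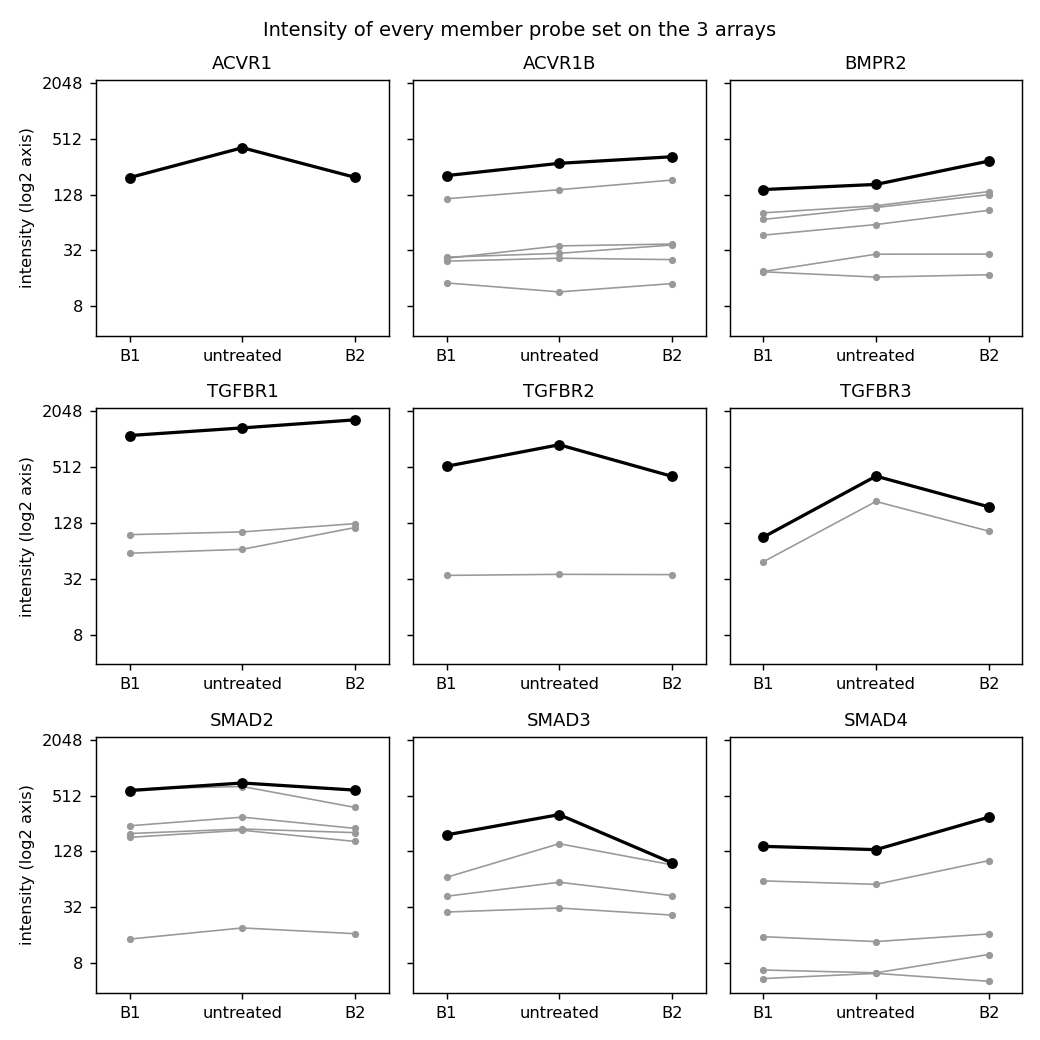
Intensity (log2 axis) of each of the 35 member probe sets on the B1, untreated and B2 arrays, with 1 panel per gene and untreated in the middle. Black marks the brightest probe set of a gene and grey the others; the lines only join points of a probe set. ACVR1 and TGFBR3 lie highest in the untreated array, whereas the brighter probe sets of BMPR2, ACVR1B, TGFBR1 and SMAD4 lie highest in B2.

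TGFBR3, or betaglycan, is a co-receptor without kinase activity that presents ligand, TGF-beta 2 above all, to the signalling receptors. Its brightest probe set read 409 untreated, 90.2 in B1 and 191 in B2. The other read 218, 49.0 and 105. Both cisplatin arrays lay below the untreated array on both probe sets, and B1 lay lowest. The log2 differences were -2.18 in B1 and -1.10 in B2 for the brightest probe set (mean -1.64, SE 0.55) and -2.16 and -1.06 for the other (mean -1.61, SE 0.56). The 2 probe sets thus differed from each other by far less than B1 differed from B2. Among the 19839 brighter probe sets, the brightest stood at percentile 0.0781 of the B1 differences and at percentile 5.72 of the B2 differences.

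ACVR1, also called ALK2, is a type I receptor for BMPs and was read by 1 probe set. Its intensity was 409 untreated, 195 in B1 and 196 in B2. The cisplatin arrays were nearly equal, with differences of -1.07 and -1.06, and both lay below the untreated array (mean -1.06, SE 0.18; limma adjusted p = 0.95). Its difference passed 2-fold by a small margin: after quantile normalization it was -0.97 in each array, and of the 3 probe sets past the size rule only the brightest of TGFBR3 remained (-2.09 and -1.01).

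TGFBR2, the type II receptor that binds TGF-beta directly and activates TGFBR1, was read by 2 probe sets. The bright one read 891 untreated, 522 in B1 and 408 in B2, so both cisplatin arrays were lower, by -0.77 and -1.13 (mean -0.95, SE 0.25; limma adjusted p = 0.95). The dim one read 35.9 in the untreated array, near that array's median of 34.7, and differed by -0.04 and -0.01. Over both, the mean difference of TGFBR2 was -0.49.

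The other receptors did not share this direction. BMPR2 is the type II receptor for BMPs, and its brightest probe set read 165 untreated, 145 in B1 and 293 in B2. Of its 6 probe sets 5 were lower in B1 and higher in B2, and the remaining, dim one was slightly higher in both. B1 differences ran from -0.62 to 0.19 and B2 differences from 0.0049 to 0.83. The untreated value of the 5 thus lay between the cisplatin values.

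TGFBR1, or ALK5, the type I receptor for TGF-beta, had 3 probe sets, and all 3 were lower in B1 and higher in B2. The brightest read 1353 untreated, 1120 in B1 and 1652 in B2 (-0.27 and 0.29, SE of the mean 0.32). A dimmer one read 66.7, 60.5 and 114, which was the widest B2 difference of the gene (0.78). ACVR1B, or ALK4, the type I receptor for activins, read 278, 205 and 327 on its brightest probe set (-0.44 and 0.24) and 144, 115 and 183 on the next. Of its 6 probe sets 4 were lower in B1 and higher in B2; the remaining pair were dim, 1 lower and 1 higher in both. For TGFBR1, ACVR1B and BMPR2 the difference between the cisplatin arrays on the brightest probe set (0.56, 0.67 and 1.02) exceeded the mean difference from untreated (0.01, -0.10 and 0.32), so no direction was resolved.

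**Figure D2:**
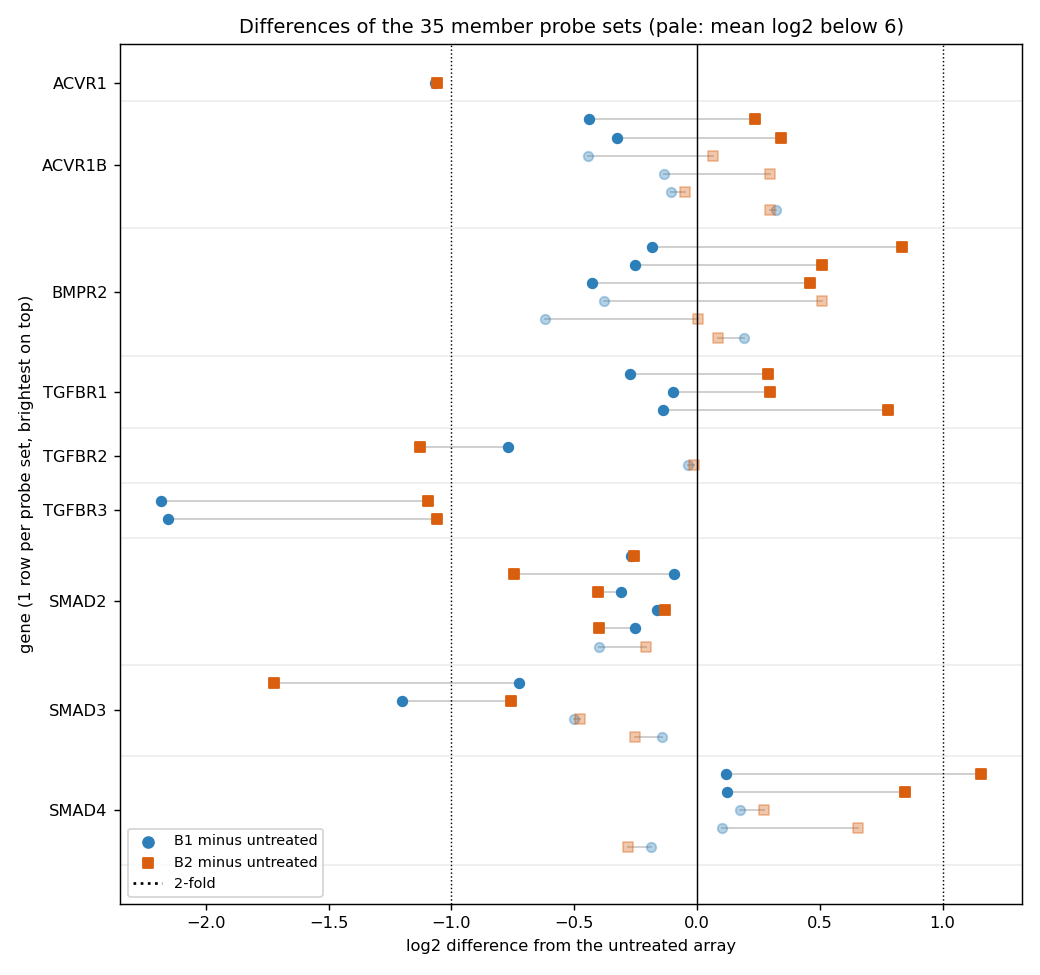
Log2 difference from the untreated array of the 35 member probe sets, B1 as blue circles and B2 as orange squares, grouped by gene with the brightest probe set on top; pale symbols average below 6 on the log2 scale and dotted lines mark 2-fold. The TGFBR3 and ACVR1 probe sets lie beyond the lower dotted line in both arrays, and the brighter BMPR2, TGFBR1 and ACVR1B probe sets straddle 0.

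SMAD3, a receptor-regulated SMAD that binds DNA directly, was lower in both cisplatin arrays on all 4 of its probe sets. The brightest read 319 untreated, 193 in B1 and 96.7 in B2 (-0.72 and -1.72, mean -1.22, SE 0.51). The next read 155, 67.5 and 92.0 (-1.20 and -0.76, mean -0.98, SE 0.28; limma adjusted p = 0.95). The cisplatin arrays changed order between these probe sets, B2 being the lowest on the first and B1 on the second. The dimmer 2 differed by -0.50 and -0.48, and by -0.14 and -0.25.

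SMAD2, the close relative of SMAD3 that serves the same receptors, was also lower in both arrays on all 6 of its probe sets. Its brightest read 699 untreated, 580 in B1 and 586 in B2 (-0.27 and -0.25, mean -0.26, SE 0.18). Differences over the 6 ran from -0.40 to -0.09 in B1 and from -0.75 to -0.13 in B2. The -0.75 belonged to a probe set that read 641, 601 and 382 and differed by -0.09 in B1. The limma adjusted p of its brightest probe set was 0.95.

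SMAD4, the partner common to both branches, was the only member gene whose brightest probe set was higher in both cisplatin arrays. It read 134 untreated, 145 in B1 and 299 in B2, differences of 0.12 and 1.16 (mean 0.64, SE 0.53; limma adjusted p = 0.95). The B1 value lay near the untreated one and B2 stood apart. The difference between the cisplatin arrays, 1.04, exceeded the mean difference from untreated, so the size of the SMAD4 difference was not resolved. Higher values in both arrays were found on 4 of the 5, but 3 of the 5 were very dim, with untreated intensities of 13.7, 6.33 and 6.24. The second brightest read 56.7, 61.8 and 102 (0.12 and 0.85).

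Genomic span, the length of a gene's annotated locus in GRCh38.p14, was set beside these differences because long genes were lower across these arrays. The brighter genes, 10209 in all, were divided where a span was known into 10 bins of near equal size, bin 1 holding the shortest. Median differences went from 0.08 in B1 and 0.15 in B2 for bin 1 to -0.53 and -0.43 for bin 10. The share of genes lower in both arrays by any amount was 14.7% in bin 1, 42.1% in bin 7, 65.1% in bin 9 and 72.6% in bin 10. All 9 measured members lay in the longer bins, 45.4 to 226 kb, against a median of 24.7 kb for all genes. ACVR1B (45.4 kb), TGFBR1 (50.5 kb) and SMAD4 (54.8 kb) fell in bin 7. TGFBR2 (87.8 kb), SMAD2 (122 kb), SMAD3 (130 kb) and ACVR1 (140 kb) fell in bin 9, and BMPR2 (191 kb) and TGFBR3 (226 kb) in bin 10. Of the 9 members, 5 were lower in both arrays on the brightest probe set, a count to be read beside these bins' shares.

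Less the median of their own bin, the members still spread widely. TGFBR3 had -1.65 in B1 and -0.67 in B2, ACVR1 had -0.76 and -0.75, TGFBR2 -0.47 and -0.82, and SMAD3 -0.42 and -1.42. None of the member probe sets stayed 2-fold lower in both arrays on this scale. SMAD2 lay close to its bin, at 0.03 and 0.05. BMPR2 lay above its bin in both arrays, by 0.35 and 1.26, as did SMAD4, by 0.19 and 1.22. By mean difference BMPR2 stood at percentile 96.4 and TGFBR3 at percentile 4.06 of bin 10. In bin 9 SMAD3 stood at percentile 2.60, ACVR1 at 4.85, TGFBR2 at 7.21 and SMAD2 at 56.8. In bin 7 SMAD4 stood at percentile 97.8, TGFBR1 at 61.4 and ACVR1B at 47.1. Across the 9 members, which share these arrays, Spearman's rho between span and mean difference was -0.52, given as a description only.

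**Figure D3:**
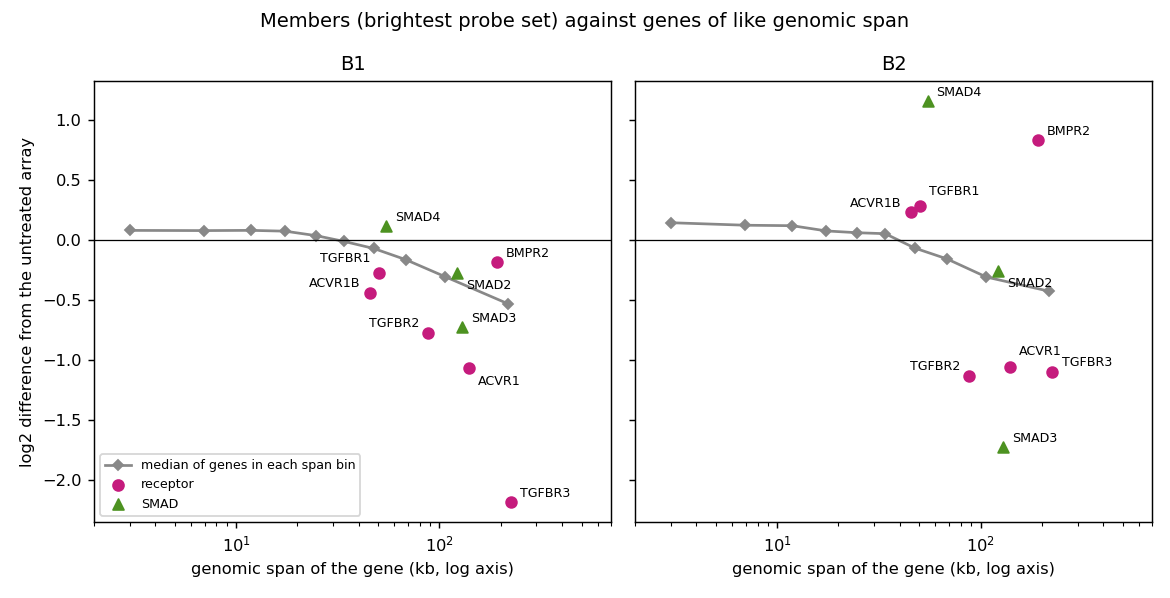
Log2 difference from the untreated array of the brightest probe set of each measured member against genomic span (kb, log axis), B1 on the left and B2 on the right; circles are receptors, triangles SMADs, and grey diamonds joined by a line the median of genes in each of the 10 span bins. TGFBR3 and BMPR2, both in bin 10, lie on opposite sides of the line.

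The sequence before the transcription start is shown for TGFBR3, BMPR2 and SMAD4, the measured members with a single start in the RefSeq promoter table (GRCh38.p14), since TGFBR3 lay below and the others above genes of like span. The windows are the 250 bases before the start: chr1:91886152-91886401 on the minus strand for TGFBR3, chr2:202376077-202376326 on the plus strand for BMPR2 and chr18:51029963-51030212 on the plus strand for SMAD4. Capitals mark the GC box GGGCGG, the motif bound by Sp1-family factors, on either strand.
TGFBR3: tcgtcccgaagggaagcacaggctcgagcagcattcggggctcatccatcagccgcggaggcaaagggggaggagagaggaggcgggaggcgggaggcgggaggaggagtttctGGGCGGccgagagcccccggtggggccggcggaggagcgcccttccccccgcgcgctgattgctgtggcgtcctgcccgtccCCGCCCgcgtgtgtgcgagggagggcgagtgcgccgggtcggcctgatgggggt
BMPR2: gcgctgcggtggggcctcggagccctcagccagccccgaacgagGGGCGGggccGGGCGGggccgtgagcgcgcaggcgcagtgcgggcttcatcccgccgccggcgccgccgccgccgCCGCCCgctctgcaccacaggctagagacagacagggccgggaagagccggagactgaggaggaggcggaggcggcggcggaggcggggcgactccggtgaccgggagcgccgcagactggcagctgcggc
SMAD4: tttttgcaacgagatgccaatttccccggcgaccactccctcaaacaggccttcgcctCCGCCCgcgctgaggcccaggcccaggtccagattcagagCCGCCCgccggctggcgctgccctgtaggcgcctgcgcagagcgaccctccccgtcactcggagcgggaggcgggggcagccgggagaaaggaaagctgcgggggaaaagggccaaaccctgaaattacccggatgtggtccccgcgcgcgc
GC boxes numbered 2 in TGFBR3, 3 in BMPR2 and 2 in SMAD4. Any relation of the number to the differences was not tested. Of all 27305 genes' windows, taking the first listed start of each, 42.3% held a GC box. Of the 10 member windows, 7 did, whereas those of TGFBR1, TGFBR2 and BMPR1A did not. The pentamer CAGAC, which contains a core SMAD-binding sequence, was searched on both strands and occurred in 3 member windows (ACVR1, BMPR2 and TGFBR1) and in 37.8% of all. TATAAA occurred in 1 (BMPR1A; 11.1% of all) and the AP-1 motif TGANTCA in 0 (6.60% of all). A match is a run of letters and was not tested as a binding site.

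The rest of the pathway was described from lists of 98 measured genes in all, each gene by its brightest probe set. No gene passed limma's test over the 19775 genes (0% called; lowest adjusted p = 0.97); 414 genes were lower and 151 higher at an unadjusted limma p under 0.05. By any amount, 27.4% of all genes were lower in both cisplatin arrays, 39.2% were higher in both and 17.3% were lower in B1 and higher in B2, and 0.678% passed the size rule lower and 0.142% higher. The medians of all genes were 0.03 in B1 and 0.05 in B2.

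Among the ligands, 14 of 19 were higher in both arrays and 1 was lower, against 39.2% and 27.4% of all genes. Their medians were 0.13 and 0.29, although 11 of the 19 were dim. Of the 8 brighter ones 7 were higher and 1 lower, against 29.8% and 34.2% of brighter genes. The ligands' median span was 20.3 kb, and less their span bin's median 10 of the 19 were higher and 1 lower in both arrays. The ligand lower in both arrays was TGFB2, which depends most on TGFBR3: it read 560 untreated, 332 in B1 and 62.3 in B2 (-0.75 and -3.17). BMP2, a BMP that uses BMPR2, read 108, 116 and 265 (0.10 and 1.30). INHBA, the activin A subunit, read 431, 486 and 625 (0.17 and 0.54), and GDF11, a relative of myostatin, read 98.0, 117 and 139 (0.26 and 0.50). Over all their probe sets the B1 differences of BMP2 and INHBA were -0.0093 and -0.012, so the count of 14 depends on the choice of the brightest. The values of TGFB2 and BMP2 differed most in B2.

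Of 7 other receptors, 2 were higher and 0 lower in both arrays, and 4 were dim. The activin type II receptors had no shared direction: ACVR2A read 142, 124 and 155 (-0.20 and 0.13), and ACVR2B read 110, 121 and 69.3 (0.13 and -0.67, with a mean of 0.09 over its 3 probe sets, against -0.27 on the brightest). The BMP-branch SMADs were SMAD1, which read 277, 189 and 252 (-0.55 and -0.14), SMAD5, which read 550, 446 and 314 (-0.30 and -0.81), and SMAD9, which read 90.9, 63.5 and 119 (-0.52 and 0.39). SMAD1 and SMAD5 were thus lower in both arrays, as SMAD2 and SMAD3 were, but not all 4 were lower than genes of like span. SMAD1 (78.4 kb) fell in span bin 8, where 54.6% of genes were lower in both arrays. Its B2 difference of -0.14 was not below the B2 median of that bin, -0.16. SMAD5 (49.9 kb) fell in bin 7 and lay below its median, -0.07, on either array. Less the bin's median, SMAD3 stayed lower (-0.42 and -1.42) and SMAD2 did not (0.03 and 0.05). Of the inhibitory SMADs, SMAD7 differed by -0.24 and 0.08, and SMAD6, which was dim, by -0.45 and -0.25. BAMBI, the pseudoreceptor that blocks type I receptors, stood apart at 99.7, 246 and 395 (1.30 and 1.99).

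Transcripts of genes for turnover or anchoring of receptors and SMADs were mostly lower. Of 14 measured genes, 11 were lower and 0 higher in both arrays, with medians of -0.37 and -0.35; none passed limma's test and none the size rule. All 14 were brighter genes, of which 34.2% were lower and 29.8% higher in both arrays over the whole table. Their median span was 113 kb, and less their span bin's median 9 of the 14 were lower in both arrays, with a median of -0.21. NEDD4L, a ubiquitin ligase for SMAD2 and SMAD3, read 899, 491 and 417 (-0.87 and -1.11). Over its 6 probe sets the differences were -0.29 and -1.07. TRIM33, a ubiquitin ligase that binds SMADs, read 882, 585 and 447 (-0.59 and -0.98). ZFYVE9, or SARA, which holds SMAD2 and SMAD3 at the receptor, read 245, 162 and 144 (-0.60 and -0.76), and RNF111, or Arkadia, which degrades SMAD7 and SKIL, read 445, 328 and 256 (-0.44 and -0.80).

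Nuclear partners were 7 lower and 3 higher of 15, with medians of -0.16 and -0.15. Their median span was 78.8 kb, in span bin 8, where 54.6% of genes were lower in both arrays. Less their span bin's median 6 were lower and 3 higher in both arrays, with a median of -0.006. The corepressor SKI read 840, 578 and 445 (-0.54 and -0.92), and the coactivator CREBBP 380, 204 and 250 (-0.90 and -0.60). Over all probe sets the mean difference was smaller, -0.30 for SKI and -0.33 for CREBBP, against -0.73 and -0.75 on the brightest. The corepressor TGIF2 read 254, 247 and 175 (-0.04 and -0.53). RUNX2, a partner of SMADs, passed the size rule at 250, 83.5 and 114 (-1.58 and -1.14), but over its 6 probe sets the mean difference was -0.03. In the TAK1 branch, which runs beside the SMADs, 4 of 7 genes were lower in both arrays and 0 higher, with medians of -0.02 and -0.31. Their median span was 61.8 kb, also in bin 8. Less their span bin's median 3 were lower and 0 higher in both arrays, with a median of -0.07. TAB3, an adaptor of the kinase TAK1, differed by -0.33 and -1.02 (-0.22 over its 4 probe sets). Its relative TAB2 differed by -0.57 and -0.13, and XIAP, which links BMP receptors to TAK1, by -0.11 and -0.09. Over all their probe sets the B2 differences of TAB2 and XIAP were 0.0064 and 0.027.

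Extracellular regulators were 7 higher and 2 lower of 16, against 39.2% and 27.4% of all genes. Of the 10 brighter ones 4 were higher and 2 lower, against 29.8% and 34.2% of brighter genes. FSTL3, which traps activins, read 106, 169 and 260 (0.67 and 1.29), and LTBP4, which stores latent TGF-beta in matrix, read 63.7, 70.9 and 109 (0.15 and 0.77). The activators of latent TGF-beta ITGB8 (1951, 1239 and 1362) and THBS1 (4225, 3253 and 2135) were lower in both, by -0.66 and -0.52 and by -0.38 and -0.98.

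Of 20 genes known as targets of the pathway, 8 were higher and 4 lower in both arrays and 8 were lower in B1 and higher in B2. The shares of all genes were 39.2%, 27.4% and 17.3% in the same order. The medians of the targets were -0.14 in B1 and 0.69 in B2. The ID genes, direct BMP targets that encode inhibitors of basic helix-loop-helix factors, had no shared direction. ID2 read 272 untreated, 1609 in B1 and 1551 in B2, whereas ID1 read 1023, 671 and 1783 (-0.61 and 0.80) and ID3 read 526, 466 and 627 (-0.18 and 0.25). CDKN1A (369, 748 and 1470), BAMBI and ID2 were the targets past the size rule. FN1, fibronectin, read 516, 432 and 54.0 (-0.26 and -3.26), nearly all of it in B2. Many of these genes also answer to other pathways.

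**Figure D4:**
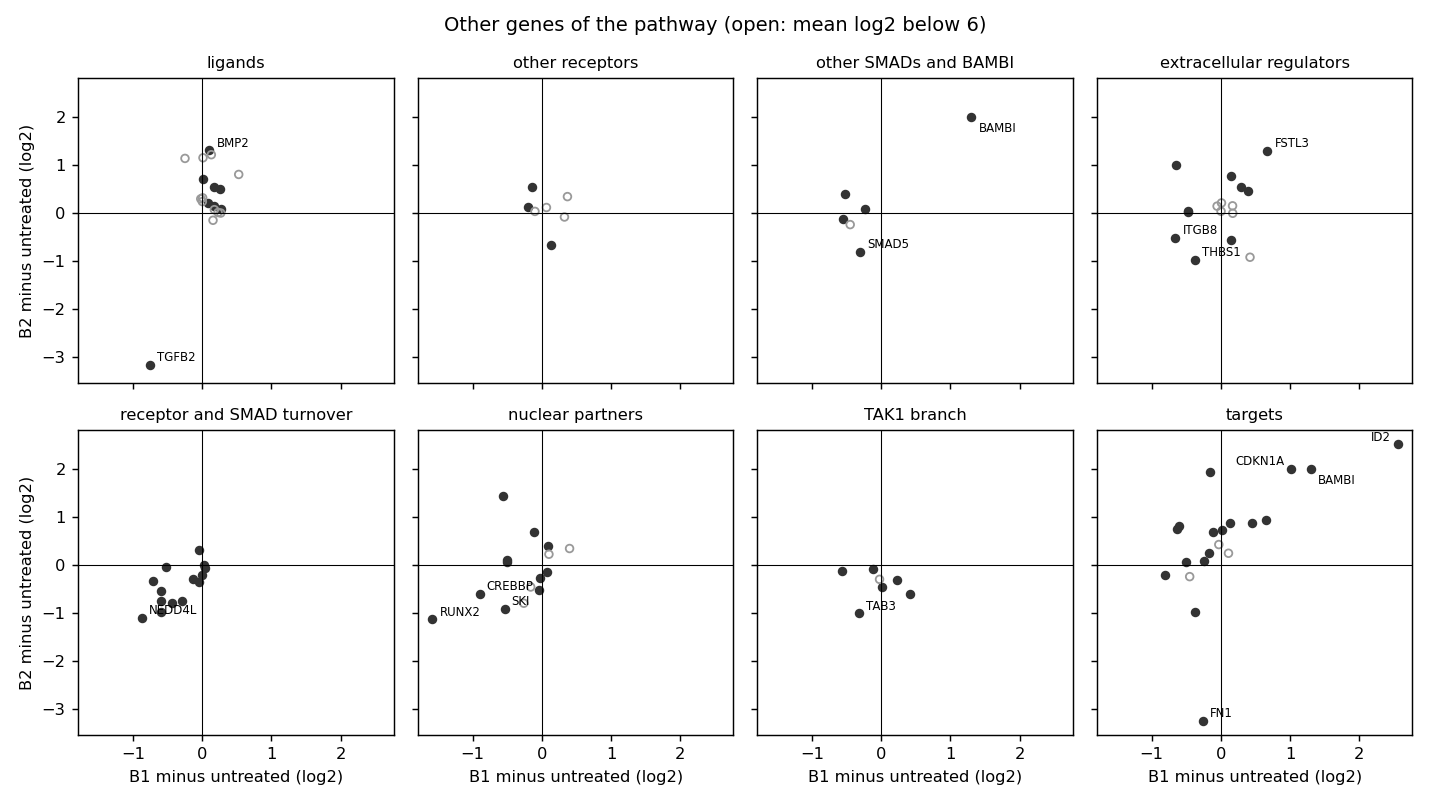
Log2 difference of B1 (horizontal) and B2 (vertical) from the untreated array for the other measured genes of the pathway, 1 panel per list and 1 point per gene (brightest probe set); open points average below 6 on the log2 scale. Both axes share the untreated array. Turnover genes lie mostly in the lower left of their panel, and TGFB2 and FN1 lie far below the rest in B2.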

How the data were processed

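The authors deposited 1 intensity per probe set on a linear scale; the submitters' processing notes name RMA, with version and chip definition not given in the sources used here. Values were put on the log2 scale with no pseudocount, without 62 control probe sets. Of the rest, 41091 carried 1 gene symbol, 1801 several and 11721 none in the annotation used; 19735 of 19775 gene symbols were matched to GRCh38.p14 by gene number. A gene is represented by its probe set of highest mean log2 value; all probe sets of members are given. Limma 3.58.1 in R 4.3.3 (lmFit, eBayes, Benjamini-Hochberg, threshold 0.05) was fitted to all probe sets and to all genes. On simulated arrays of this design it called mainly the largest changes after adjustment, so a value that misses the threshold is not shown to be equal. The fit had 1 residual degree of freedom and 2.21 (probe sets) or 2.01 (genes) prior degrees of freedom, so an SE is mostly pooled over genes and the lone untreated array is assumed to vary like the cisplatin arrays. RMA equalises the arrays' distributions, so a shift shared by most genes would not be seen, and no detection calls were used, so dim values have no stated floor. The number of arrays limits all precision. Members and lists were chosen with earlier results of these data known. Of each list the genes named are the up to 4 with the largest absolute mean difference among those of mean log2 at least 6 that differed the same way in both arrays, plus SMAD1, SMAD5, SMAD6, SMAD7, SMAD9, BAMBI, ID1, ID2, ID3, ACVR2A and ACVR2B. Alternatives covered the variance prior, quantile normalization, median centring, a brightness filter, the choice of probe set, other fold thresholds, genomic span and each cisplatin array alone.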

Additional observations from a re-analysis of the deposited data

How the results depend on the processing

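No paired analysis was possible because the untreated group has 1 array. Limma called 0 probe sets of members and 0 genes under each setting in which it was run. The count of 3 member probe sets past the size rule, lower, became 1 with quantile normalization, 6 at 1.5-fold, 0 at 3-fold, 0 less the span bin's median, and 4 without B2 or 5 without B1; the count of 0 higher became 0 without B2 and 1 without B1. Over all genes the 134 lower became 38 with the mean of all probe sets, 524 at 1.5-fold, 24 at 3-fold, 39 less the span bin's median and 299 without B2 or 890 without B1; the 28 higher became 189 at 1.5-fold, 4 at 3-fold, 47 without B2 and 591 without B1. Among the 98 other pathway genes, 1 lower became 0 with the mean of all probe sets, 6 at 1.5-fold, 0 at 3-fold and 1 to 5 with an array left out, and 3 higher became 5, 1 and 3 to 10. Fewer arrays and other thresholds make these counts differ by construction; for the other settings the cause was not tested. Of the member genes, ACVR1B turned from -0.10 to 0.0054 over all probe sets and ran from -0.44 to 0.24 with 1 array, BMPR2 from -0.18 to 0.83 and TGFBR1 from -0.27 to 0.29. TGFBR1 was -0.031 after median centring (0.0075 as reported), and SMAD2 was 0.043 less the span bin's median (-0.26 as reported). ACVR1, TGFBR2, TGFBR3, SMAD3 and SMAD4 kept their direction under every setting tried. Signal over background limits the dim probe sets, which include 3 of SMAD4 and 4 of ACVR1B.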
